A study of Mus musculus with 25 samples.

Results

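Genes of the cell cycle and of DNA replication were followed in mouse embryos with and without the microRNA miR-302. The set holds 55 genes named by symbol, 17 regulators of the G1 phase, 18 genes of DNA replication and 20 genes of mitosis. A gene was tested where at least 1 of its probes had a detection p under 0.05 on at least 3 of the 25 arrays. This left 43 of the 55 genes, out of 10261 genes tested on the array, namely 14 G1 regulators, 15 replication genes and 14 mitosis genes. The rule uses a probe's name and its detection, not its differences between groups.

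Gene expression was read on MouseRef-8 v2.0 bead arrays from Illumina, 1 for each of 25 samples, and replicates were independent embryos per the series design text. The embryos were miR-302 knockout (KO) or wild type (WT), all of strain B6. Whole embryos of embryonic day 7.5 (E7.5) comprised 3 KO and 2 WT. The later samples were anterior neural tissue, with 3 KO and 2 WT embryos at E8.0, 3 of each genotype at E8.5 and 4 of each at E9.5. At E8.0, 1 more WT array bore the label whole embryo and entered no comparison. The labels name no treatment and do not describe the knockout allele. The comparisons ask whether loss of miR-302 was accompanied by other levels of cell cycle messenger RNAs, and how those levels moved from E7.5 to E9.5.

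Progress from G1 into S phase is driven by cyclin D and cyclin E kinases, which phosphorylate the retinoblastoma family proteins and so release E2F transcription factors. E2F factors raise the genes of origin licensing, the replication fork and nucleotide supply, and a later group of genes, many with a CHR element in the promoter, peaks in G2 and mitosis. The miR-302 family is abundant in pluripotent cells and the early embryo, and in mouse embryonic stem cells microRNAs of its seed family are known to act on inhibitors of the G1 to S transition such as Cdkn1a. In the neural plate and early neural tube most cells are dividing progenitors, and cells that become neurons leave the cycle.

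The mature microRNAs are shown because their seeds, in capitals (bases 2 to 8 from the 5′ end), set which messages they pair with. The first 4 belong to the cluster of miR-302 and miR-367, which also holds miR-302a-3p, on mouse chromosome 3 (+ strand, GRCm38.p6, RefSeq), with miR-302b-3p at chr3:127545275-127545297, miR-302c-3p at chr3:127545406-127545427, miR-302d-3p at chr3:127545665-127545687 and miR-367-3p at chr3:127545779-127545800.
miR-302b-3p: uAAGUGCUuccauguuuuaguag
miR-302d-3p: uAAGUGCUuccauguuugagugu
miR-302c-3p: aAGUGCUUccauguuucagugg
miR-367-3p: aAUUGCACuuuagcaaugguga
miR-302b-3p and miR-302d-3p share the seed AAGUGCU. The entry for miR-302c-3p starts 1 base further along, so its seed reads AGUGCUU. A second set is shown because it lies inside a gene of the replication group, Mcm7, on chromosome 5 (- strand, GRCm38.p6, RefSeq), with miR-106b-5p at chr5:138165787-138165807, miR-93-5p at chr5:138165574-138165596 and miR-25-3p at chr5:138165332-138165353.
miR-106b-5p: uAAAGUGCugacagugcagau
miR-93-5p: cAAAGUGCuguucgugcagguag
miR-25-3p: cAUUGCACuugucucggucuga
miR-106b-5p and miR-93-5p share the seed AAAGUGC, which after its first base runs like the start of the miR-302b-3p seed AAGUGCU. miR-25-3p has the seed AUUGCAC, the same as miR-367-3p. No probe used here measures a microRNA, so the genotype labels had no check of their own.

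Several well known genes of the set carry no value. Cdk4, Rfc3, Gins2, Ccnb1, Aurkb and Mki67 have no probe under these symbols and were not analysed here. Cdk6, Rbl2, Pola1, Ccnb2, Bub1 and Wee1 were above background on 0 arrays and were not tested. Of the 43 tested genes, 37 were detected on all 25 arrays. Cdkn1b, Gmnn and Ccna2 were above background at E9.5 alone among the 4 stages, and Prim1 at E9.5 and on 1 KO array at E8.5. These detection limits apply wherever these genes are named.

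The E9.5 arrays differ from the others in more than stage. All E9.5 arrays were on plate 4 per the labels, with a median raw signal of 222.05 to 262.1 and 50.2 to 53% of probes detected, against 106.54 to 148.01 and 42.5 to 47.5% on the earlier arrays of plates 1 to 3. Stage and plate cannot be told apart in any change to E9.5. Before E9.5, plate was uneven between the genotypes. The WT arrays compared came from plate 1 at E7.5 and E8.0 and from plate 2 at E8.5. KO replicate 1 came from plate 2 at each of these stages. KO replicates 2 and 3 came from plate 1 at E7.5 and E8.0, and from plate 3 at E8.5. Genotype and plate are thus partly mixed in the KO and WT comparisons before E9.5. Markers of cell types also differed between stages. Of the 8 neuron markers tested, 5 were higher at E9.5 than at E8.5 in KO and 5 in WT tissue. Of the 6 primitive erythroid markers tested, 1 was higher in KO and 3 in WT tissue. Over all genes 15.6% were higher in KO and 18.9% in WT between these stages. The mean log2 signal of the 8 neural progenitor markers tested lay at 6.51 to 7.21 in KO and 7.31 to 7.4 in WT at E8.0, at 6.99 to 7.38 in KO and 7.64 to 7.82 in WT at E8.5, and at 7.85 to 8.13 in KO and 7.25 to 7.77 in WT at E9.5. At each of these stages the genotypes did not overlap in that mean, which was lower in KO at E8.0 and E8.5. At E9.5 the mean was higher in KO but the list was split. There 4 of the 8 markers lay above 0, 1 passed as higher and 1 as lower, with a median log2 difference of 0.05. Over all genes 1.56% passed as higher and 0.711% as lower at E9.5. Of the 10 marker lists, the genotypes did not overlap in the mean of 4 at E7.5, 2 at E8.0, 3 at E8.5 and 5 at E9.5. With so few arrays in a group, means can separate by chance, and the share over all genes was not computed. At E7.5 the neuron, epiblast and trophoblast means were higher and the mesenchyme mean lower in KO. The trophoblast mean was 7.49 to 8.2 in KO, against 7.01 to 7.22 in WT, at E8.0. Neuron and epiblast means were lower in KO at E8.5. At E9.5 the surface ectoderm mean was 8.73 to 8.9 in KO, against 8.95 to 9.49 in WT, the primitive erythroid mean 12.36 to 12.71 in KO, against 12.78 to 12.97 in WT, and the trophoblast and epiblast means were also lower in KO. Pax6 and Hesx1, defining genes of anterior neural tissue, were each read by 1 probe and detected on 0 arrays. Sox3 was detected on 1 E9.5 KO array alone. Otx2 and Nes, from the same list, were detected on every array. At E9.5 Six3 was detected on 4 WT and 0 KO arrays, and Rax on 4 WT and 2 KO arrays. Whether the silent probes can read their messages was not tested. Which part of the differences below comes with the mix of cells was not tested, and fewer cells of a type and less RNA per cell cannot be told apart in bulk tissue.

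Between KO and WT embryos few genes of the set differed at any 1 stage. Those that passed in the fit used here were higher in KO, while under some other processing Mcm4 passed as lower at E8.5. At E7.5, 0 of 43 passed at an adjusted p under 0.05 (limma with Benjamini-Hochberg adjustment over all 10261 genes), where 0.224% of all genes passed (0.175% higher and 0.0487% lower in KO), and 6 had an unadjusted p under 0.05. The 3 lowest p at E7.5 belonged to Cdc25b (0.82, adjusted p 0.16), Mcm7 (-0.94, adjusted p 0.314) and Plk4 (0.45, adjusted p 0.524). At E8.0, 3 rose and 0 fell, where 1.73% of all genes passed (1.2% higher and 0.536% lower). At E8.5, 3 passed with values above 0 and 0 below, where 5.59% of all genes passed (3.18% higher and 2.42% lower). Ccna2, 1 of these 3, was above background on 0 E8.5 arrays. Among genes above background on at least 1 array of each group compared, 2 of 39 rose at E8.5 (5.13%), where 5.69% of such genes passed (3.4% higher and 2.29% lower). At E9.5, 3 rose and 0 fell, where 2.27% of all genes passed (1.56% higher and 0.711% lower). The 3 genes make up 6.98% of the set at each of these stages, close to the background at E8.5. Averaged over the 4 stages with equal weights, 4 of the 43 genes passed, 3 higher and 1 lower in KO, which is 9.3% of the set where 3.32% of all genes passed (2.07% higher and 1.26% lower). The mean shares its arrays with the 4 single stages. The set as a whole stayed near 0, and the median log2 difference of the 43 genes was 0.00 at E7.5, 0.04 at E8.0, -0.00 at E8.5 and 0.10 at E9.5, against 0.00, 0.02, -0.02 and -0.00 over all genes tested.

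**Figure D1:**
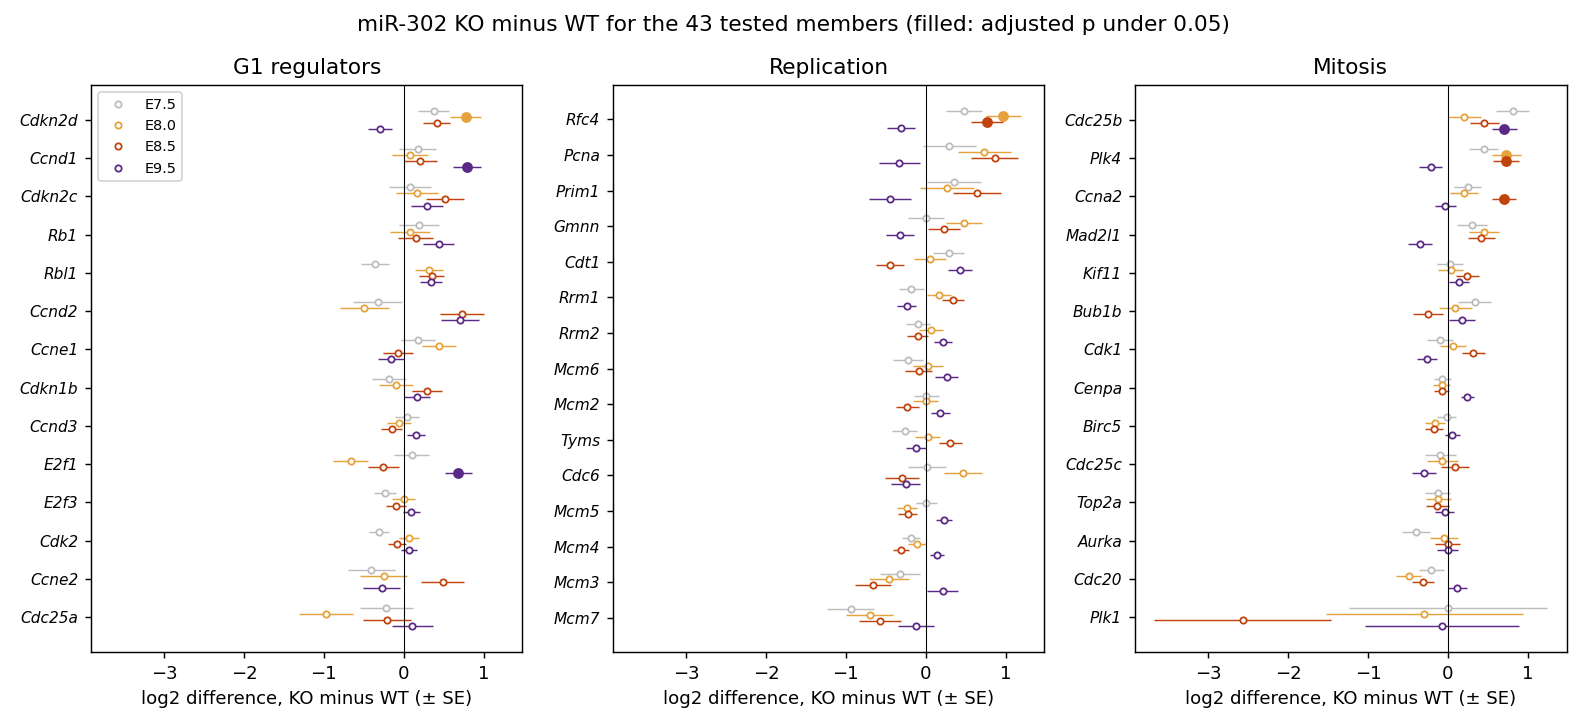
KO minus WT log2 difference of the 43 tested genes at E7.5, E8.0, E8.5 and E9.5, ordered by role, with standard errors as bars and filled points for genes with an adjusted p under 0.05. Filled points number 0 at E7.5 and 3 at each later stage, all to the right of 0; Ccna2 at E8.5 is below background in both genotypes.

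Among the G1 regulators, Ccnd1 and E2f1 rose at E9.5 and Cdkn2d at E8.0. Ccnd1 encodes cyclin D1, which couples growth signals to entry into the cycle. At E9.5 its log2 signal was 13.54, 13.27, 13.12 and 13.54 in KO tissue, against 12.97, 12.62, 12.56 and 12.16 in WT tissue. Every KO sample lay above every WT sample. The log2 difference was 0.79 (SE 0.18), a fold of 1.73, with an adjusted p of 0.0227. At E7.5, E8.0 and E8.5 the differences were 0.17, 0.08 and 0.21, none of which passed, and the groups overlapped at E7.5 and E8.0. All 3 probes of Ccnd1 passed at E9.5 when every kept probe was tested, with log2 differences of 0.79, 0.92 and 1.28. The E9.5 call was lost without KO replicate 1 or 4 or WT replicate 3 or 4 (adjusted p up to 0.114), and the log2 difference stayed between 0.65 and 0.92 when any 1 E9.5 array was left out.

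Ccnd2, which encodes cyclin D2, a D cyclin of neural progenitors, separated the genotypes at E8.5 without passing the test. At E8.5 it measured 12.22, 12.59 and 12.37 in KO tissue, against 11.40, 11.79 and 11.80 in WT tissue. The groups did not overlap, and the log2 difference of 0.73 (SE 0.28) did not pass (adjusted p 0.117). At E9.5 it measured 12.77, 12.47, 12.54 and 12.14 in KO tissue, against 12.59, 11.58, 11.60 and 11.34 in WT tissue. WT replicate 1 lay within the KO range here and the other 3 WT samples below it, and the difference of 0.70 (SE 0.24) did not pass (adjusted p 0.125). At E7.5 and E8.0 the differences were -0.33 and -0.49. Within KO embryos Ccnd2 was 2.24-fold higher at E8.5 than at E8.0, where it had measured 10.62, 11.45 and 11.63. It was the 1 gene of the set to pass between these stages in KO, where 3.21% of all genes passed, 1.03% higher and 2.17% lower (log2 difference 1.16, SE 0.28, adjusted p 0.0254). Without E8.0 KO replicate 1 or E8.5 KO replicate 2 or 3 this call was lost (adjusted p up to 0.148). E8.0 KO replicate 1, the lowest of these values, had an epiblast marker mean of 9.03, against 7.41 and 7.18 in replicates 2 and 3. It also had the lowest share of probes detected (42.5%) and was on plate 2. Their part in the call was not tested. In WT the change of Ccnd2 between the same stages was -0.06 (95% interval -0.71 to 0.58). Ccnd3, the third D cyclin, differed by -0.15 to 0.16 between genotypes at the 4 stages by its brightest probe, and its probes disagreed. The other 2 kept probes gave -1.45 (adjusted p 0.0552 over all kept probes) and 0.94 (adjusted p 0.0953) at E8.0, and -0.58 and -0.48 at E8.5.

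E2f1, the activating E2F transcription factor, was below WT in KO tissue at E8.0 and E8.5, without passing, and above it at E9.5. At E8.0 it measured 9.52, 9.89 and 10.16 in KO tissue, against 10.52 and 10.53 in WT tissue. The E8.5 values were 10.20, 10.12 and 10.29 in KO tissue, against 10.53, 10.38 and 10.45 in WT tissue. KO samples lay below WT samples at both stages, with log2 differences of -0.66 and -0.25 that did not pass (adjusted p 0.113 and 0.477). The E9.5 values were 10.67, 10.61, 10.61 and 10.83 in KO tissue, against 10.21, 9.99, 10.03 and 9.75 in WT tissue. All KO samples were then above all WT samples, and the log2 difference of 0.68 (SE 0.17), a fold of 1.61, passed with an adjusted p of 0.0404. The adjusted p rose above 0.05 when any 1 E9.5 array other than WT replicate 1 was left out, up to 0.171, with a log2 difference of 0.60 to 0.76. The KO effect at E9.5 differed from that at E8.5 by 0.94 (SE 0.26, adjusted p 0.0311).

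Among the kinase inhibitors of the set, Cdkn2d passed at 1 stage. Cdkn2d encodes p19INK4d, which binds Cdk4 and Cdk6. At E8.0 it measured 7.76, 8.04 and 7.77 in KO tissue, against 6.94 and 7.22 in WT tissue. The groups did not overlap, and the difference of 0.78 (SE 0.19), a fold of 1.72, had an adjusted p of 0.0466. It held without KO replicate 3 and was lost without any other of the E8.0 arrays compared (adjusted p up to 0.265). At E7.5, E8.5 and E9.5 the differences were 0.38, 0.41 and -0.30, none of which passed. The inhibitor gene Cdkn2c had a higher mean in KO at each stage, with overlap and without passing. Its means from E7.5 to E9.5 were 6.68, 6.895, 6.805 and 6.03 in KO, against 6.60, 6.73, 6.29 and 5.74 in WT. Cdkn1b, which encodes p27Kip1, was below background before E9.5 and differed by 0.17 at E9.5 (adjusted p 0.665). Among the retinoblastoma family, Rb1 differed by 0.08 to 0.44 and Rbl1 by -0.36 to 0.35 over the stages, and neither passed. Cdc25a, the phosphatase that activates Cdk2, had the lowest G1 value at E8.0 (-0.97, SE 0.34, adjusted p 0.121).

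Replication genes lay on both sides of WT, with Rfc4 higher in KO and Mcm7 lower. Rfc4 encodes a subunit of replication factor C, the clamp loader that places Pcna on DNA. At E7.5 it measured 10.19, 9.69 and 9.61 in KO embryos, against 9.26 and 9.44 in WT embryos. At E8.0 it measured 10.84, 11.11 and 10.46 in KO tissue, against 9.99 and 9.67 in WT tissue. KO samples lay above WT samples at both stages. At E8.5 it measured 10.94, 11.09 and 10.96 in KO tissue, against 9.87, 10.58 and 10.24 in WT tissue, again without overlap. The log2 difference was 0.97 (SE 0.22) at E8.0 with an adjusted p of 0.0363, and 0.77 (SE 0.20) at E8.5 with an adjusted p of 0.0304, folds of 1.96 and 1.70. At E9.5 Rfc4 measured 11.25, 11.36, 11.09 and 11.31 in KO tissue, against 11.21, 11.62, 11.69 and 11.73 in WT tissue. The groups overlapped, with a difference of -0.31 (95% interval -0.67 to 0.05).

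The Rfc4 calls rest on few embryos and on 1 probe. At E8.0 the call held without KO replicate 3 and was lost without any other compared array (adjusted p up to 0.242), and at E8.5 it was lost without KO replicate 2 or 3 or WT replicate 1 or 3 (adjusted p up to 0.165). The log2 difference on plate 1 alone was 0.95 at E8.0, and on plate 2 alone, with 1 KO array, 0.71 at E8.5. The second kept probe of Rfc4 gave 0.73 at E8.0 and 0.59 at E8.5, with adjusted p of 0.32 and 0.365 over all kept probes. Averaged over the 4 stages, Rfc4 was higher in KO by 0.48 (SE 0.10, adjusted p 0.0143), a call that held without any 1 array. It was lost with the mean of its probes (0.37, adjusted p 0.116) and with plate as covariate (0.41, adjusted p 0.0825).

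Pcna, the sliding clamp itself, had the same order of signs without passing. E8.5 samples measured 8.43, 8.71 and 8.15 in KO tissue, against 7.47, 7.56 and 7.67 in WT tissue. At E9.5 it measured 9.15, 9.28, 8.95 and 9.44 in KO tissue, against 8.91, 9.53, 9.65 and 10.06 in WT tissue. KO was above WT in all samples at E8.5 and the genotypes overlapped at E9.5. The differences from E7.5 to E9.5 were 0.30, 0.74, 0.86 and -0.33, with adjusted p of 0.88, 0.228, 0.0908 and 0.556.

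The Mcm genes Mcm2 to Mcm7 encode the hexameric replicative helicase, and 1 of them fell. The gene that fell in the mean of the 4 stages was Mcm7, by 0.58 on the log2 scale (SE 0.14, adjusted p 0.0226), a fold of 1.5. At E7.5 Mcm7 measured 10.13, 9.42 and 9.96 in KO embryos, against 10.41 and 11.15 in WT embryos. At E8.0 it measured 9.79, 9.86 and 10.63 in KO tissue, against 10.81 and 10.78 in WT tissue. KO was below WT in all samples at both stages. At E8.5 it measured 10.84, 9.97 and 10.13 in KO tissue, against 10.89, 11.09 and 10.67 in WT tissue. E9.5 samples measured 10.78, 10.84, 10.53 and 11.03 in KO tissue, against 10.54, 11.02, 11.14 and 10.95 in WT tissue. The groups overlapped at E8.5 and at E9.5, and the differences from E7.5 to E9.5 were -0.94, -0.70, -0.57 and -0.12. The call over the 4 stages was lost without E7.5 WT replicate 2 or E8.0 WT replicate 2 (adjusted p up to 0.067), with plate as covariate (-0.45, adjusted p 0.138), with the replicate block (adjusted p 0.0949) and with the array identities of the authors' processed table (adjusted p 0.0505).

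At E8.5 all 6 Mcm genes lay below 0 in KO minus WT, by values from -0.67 for Mcm3 to -0.09 for Mcm6, and none passed. Mcm4 measured 13.62, 13.55 and 13.61 in KO tissue, against 13.90, 13.92 and 13.90 in WT tissue, and the groups did not overlap (-0.31, SE 0.10, adjusted p 0.0767). Mcm3 measured 11.08, 10.25 and 10.76 in KO tissue, against 11.54, 11.29 and 11.26 in WT tissue, also without overlap (-0.67, SE 0.22, adjusted p 0.085). Without E8.5 KO replicate 1 Mcm3 joined the genes that passed. Mcm4 passed as lower in KO at E8.5 with the authors' processed table, without background correction and with the mean of its probes. At E9.5, Mcm2, Mcm3, Mcm4, Mcm5 and Mcm6 had differences of 0.14 to 0.26 and Mcm7 of -0.12, and none passed. Mcm2 differed by 0.01 at E7.5, 0.00 at E8.0, -0.23 at E8.5 and 0.18 at E9.5.

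Among the mitosis genes, Plk4 and Cdc25b were higher in KO, at different stages. Plk4 encodes the kinase that starts centriole duplication. At E7.5 it measured 7.30, 6.91 and 7.04 in KO embryos, against 6.66 and 6.60 in WT embryos. At E8.0 it measured 8.02, 8.28 and 7.86 in KO tissue, against 7.25 and 7.38 in WT tissue. KO lay above WT in all samples at both stages. Its E8.5 signals were 8.04, 8.65 and 8.54 in KO tissue, against 7.38, 7.81 and 7.83 in WT tissue. At E9.5 it measured 8.67, 8.65, 8.59 and 8.80 in KO tissue, against 9.04, 8.70, 8.90 and 8.93 in WT tissue. KO was above WT at E8.5 without overlap, while at E9.5 the groups overlapped.

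The log2 difference of Plk4 was 0.73 (SE 0.18, adjusted p 0.045) at E8.0 and 0.73 (SE 0.16, adjusted p 0.0159) at E8.5, a fold of 1.66 at each stage, and -0.21 (95% interval -0.51 to 0.08) at E9.5. The E8.0 call held without KO replicate 3 and was lost without any other compared array (adjusted p up to 0.22). The E8.5 call was lost without KO replicate 2 or 3 or WT replicate 1 (adjusted p up to 0.0976). On plate 2 alone, with 1 KO array, the E8.5 difference was 0.36. Averaged over the 4 stages Plk4 was higher by 0.43 (SE 0.08, adjusted p 0.00934), and this call held without any 1 array. It was lost with plate as covariate (0.31, adjusted p 0.0679), with the E8.0 whole-embryo array added to WT (0.35, adjusted p 0.0695) and with the array identities of the authors' processed table (0.30, adjusted p 0.116).

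Cdc25b encodes a phosphatase that activates Cdk1 at entry into mitosis. At E7.5 it measured 6.74, 6.63 and 6.93 in KO embryos, against 5.65 and 6.25 in WT embryos, 1 of them below background. At E8.5 it measured 8.37, 8.04 and 8.37 in KO tissue, against 8.02, 7.98 and 7.40 in WT tissue. KO was above WT in all samples at E7.5 and, by a narrow margin, at E8.5. Its E9.5 signals were 8.45, 8.41, 8.15 and 8.07 in KO tissue, against 7.504, 7.55, 7.52 and 7.66 in WT tissue, without overlap. The E9.5 difference was 0.71 (SE 0.16, adjusted p 0.0234), a fold of 1.64, and was lost without KO replicate 1 or 2 or WT replicate 2, 3 or 4 (adjusted p up to 0.0783). At E7.5, E8.0 and E8.5 the differences were 0.82, 0.21 and 0.46, none past the threshold (adjusted p 0.16, 0.61 and 0.138). Averaged over the 4 stages the difference was 0.55 (SE 0.10, adjusted p 0.00381), the lowest adjusted p in the set, and it held without any 1 array.

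Ccna2 encodes cyclin A2 of S phase and mitosis. The E8.5 values were 5.29, 5.61 and 5.28 in KO tissue, against 4.65, 4.69 and 4.72 in WT tissue. The groups did not overlap and the difference of 0.70 (SE 0.15) passed (adjusted p 0.0142), but the gene was above background on 0 E8.5 arrays in either genotype, so neither a fold nor a rise is given. Without KO replicate 2 or WT replicate 1 it was lost (adjusted p up to 0.0868). The other mitosis genes that the comparison set out to read did not pass at any stage. Cdk1, the mitotic kinase, differed by -0.09, 0.06, 0.32 and -0.26 from E7.5 to E9.5. Top2a, the topoisomerase that untangles chromosomes, differed by -0.12, -0.12, -0.13 and -0.04.

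The E8.0 calls of Rfc4, Plk4 and Cdkn2d also rest on which WT arrays are compared. The E8.0 WT array labelled whole embryo measured 10.36 for Rfc4, 8.24 for Plk4 and 7.60 for Cdkn2d, each above both neural WT arrays and, for Plk4, within the KO range. With it added to the WT group the differences were 0.80 for Rfc4, 0.43 for Plk4 and 0.61 for Cdkn2d, and 0 passed. The authors' processed table assigns the 3 E8.0 WT arrays to other replicates than the raw table does. With its assignment the differences were 0.79 for Rfc4 (adjusted p 0.168), 0.24 for Plk4 (adjusted p 0.637) and 0.45 for Cdkn2d (adjusted p 0.323). On these 3 arrays of the raw table the lowest log2 signal with a detection p under 0.05 was 4.5 to 4.59. In the other groups it was 5.29 to 6.1 per array. The raw signals and detection p-values of these 3 arrays are thus at odds, and the background correction uses both. This bears on every comparison with E8.0 WT and on the mean of the 4 stages. In the raw table the array labelled whole embryo had a neural progenitor mean of 7.47, against 7.31 and 7.4 on the neural WT arrays. Its heart mean was 6.89, against 7.34 and 10.29, and its mesenchyme mean 7.21, against 8.03 and 8.06. Its epiblast and trophoblast means were the highest of the 3. By detection p, Six3 and Rax were above background on both neural WT arrays and not on that array. Which assignment is right is unknown.

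**Figure D2:**
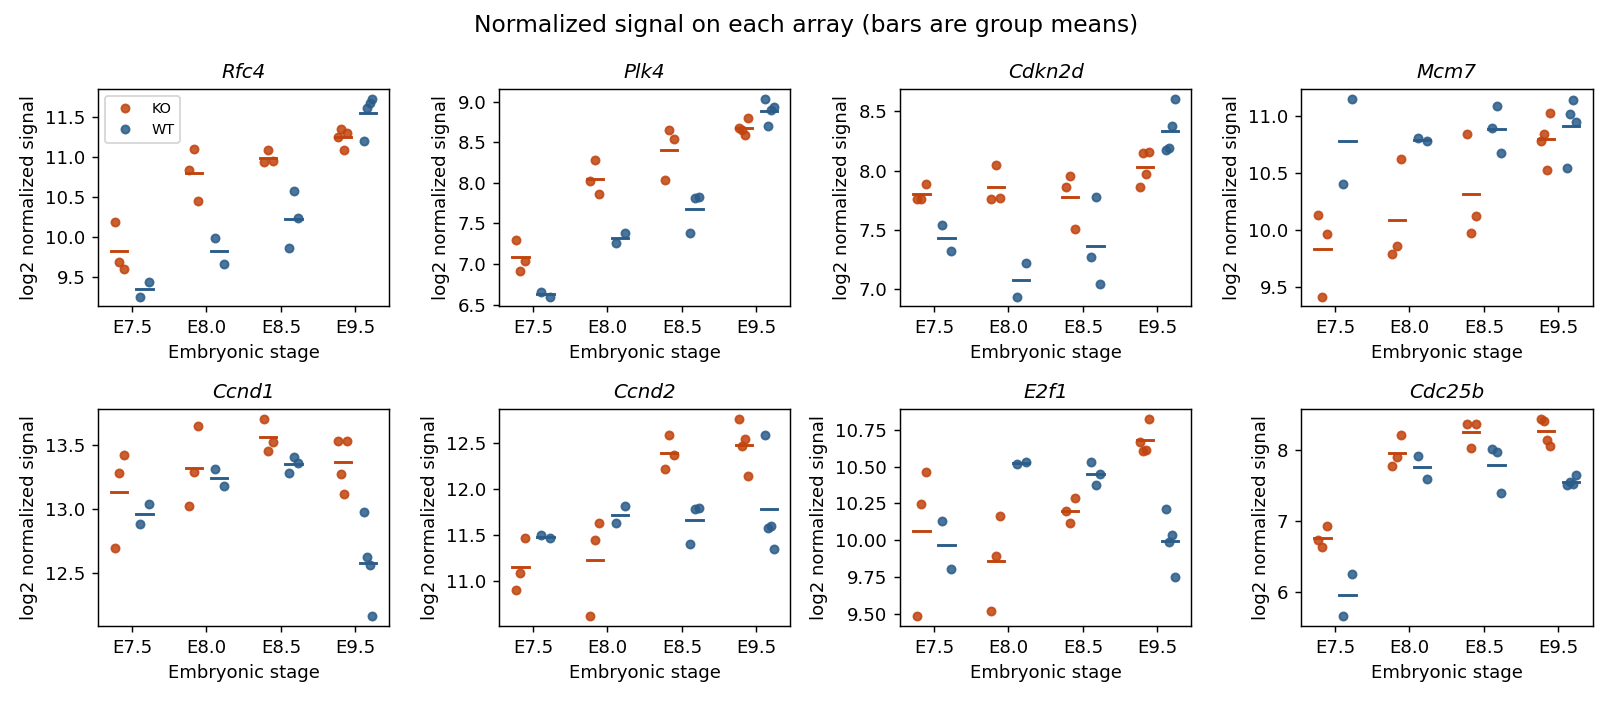
Normalized log2 signal of Rfc4, Plk4, Cdkn2d, Mcm7, Ccnd1, Ccnd2, E2f1 and Cdc25b, 1 point per array, by stage, with KO left of WT and a bar at each group mean (the E8.0 whole-embryo array is not drawn). Rfc4 and Plk4 are higher in KO through E8.5 and overlap at E9.5, while Ccnd1, E2f1 and Cdc25b separate at E9.5.

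The promoters of the 4 genes that passed over all stages are shown because Rfc4 and Plk4 had the same order of KO effects and Mcm7 the opposite sign. Each window runs from 250 bases before to 50 bases after the start of the gene (RefSeq, GRCm38.p6), 5′ to 3′ on the gene's strand. Capitals mark matches, on either strand, to an E2F word (TTCCCGC or TTGGCGC or TTCGCGC or TTGCCGC), a CHR word (TTTGAA or TTCGAA) or CCAAT. The windows are at chr16:23127681-23127980 (- strand) for Rfc4, chr3:40799701-40800000 (+ strand) for Plk4, chr2:131186698-131186997 (+ strand) for Cdc25b and chr5:138171834-138172133 (- strand) for Mcm7.
Rfc4: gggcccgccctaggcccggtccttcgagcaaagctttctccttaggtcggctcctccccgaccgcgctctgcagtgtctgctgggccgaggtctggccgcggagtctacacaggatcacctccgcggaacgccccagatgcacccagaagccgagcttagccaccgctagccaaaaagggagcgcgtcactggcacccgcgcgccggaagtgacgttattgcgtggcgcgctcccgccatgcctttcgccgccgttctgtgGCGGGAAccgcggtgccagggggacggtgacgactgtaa
Plk4: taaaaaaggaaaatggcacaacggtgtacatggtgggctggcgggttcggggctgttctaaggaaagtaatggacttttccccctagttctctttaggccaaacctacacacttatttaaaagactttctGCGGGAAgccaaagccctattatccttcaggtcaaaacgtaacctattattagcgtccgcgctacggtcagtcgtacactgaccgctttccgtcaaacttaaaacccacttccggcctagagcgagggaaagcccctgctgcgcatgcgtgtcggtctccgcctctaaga
Cdc25b: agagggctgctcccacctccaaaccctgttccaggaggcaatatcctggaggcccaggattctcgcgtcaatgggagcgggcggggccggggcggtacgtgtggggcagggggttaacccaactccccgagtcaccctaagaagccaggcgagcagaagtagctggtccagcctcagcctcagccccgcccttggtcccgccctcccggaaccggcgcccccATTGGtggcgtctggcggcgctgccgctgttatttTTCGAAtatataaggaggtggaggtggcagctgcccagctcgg
Mcm7: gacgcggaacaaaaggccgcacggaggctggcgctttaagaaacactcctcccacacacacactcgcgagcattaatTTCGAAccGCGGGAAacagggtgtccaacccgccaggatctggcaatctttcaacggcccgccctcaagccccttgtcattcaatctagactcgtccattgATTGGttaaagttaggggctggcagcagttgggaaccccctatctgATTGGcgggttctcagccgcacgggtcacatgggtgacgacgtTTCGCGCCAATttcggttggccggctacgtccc
Rfc4 and Plk4 each hold 1 E2F word and neither of the other motifs. Cdc25b holds 1 CHR word and 1 CCAAT. This Mcm7 window, 1 of 2 for the gene, holds 3 E2F words, 1 CHR word and 3 CCAAT. Near the start, 2 of the E2F words, on opposite strands, share bases with each other and with a CCAAT. Of the 55 genes, 44 had at least 1 window and 48 windows were read in all. An E2F word was in 13 of 16 replication windows (81.2%), 5 of 16 G1 windows (31.2%) and 4 of 16 mitosis windows (25%), and in 9.57% of all 32851 windows of the table. A CHR word was in 12 of 16 mitosis windows (75%), 18.8% of replication windows and 12.5% of G1 windows, and in 19.2% of all windows. CCAAT was in 81.2% of mitosis, 75% of replication, 43.8% of G1 and 37.4% of all windows. A match is a description of the letters and shows no binding.

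From the whole embryo at E7.5 to anterior neural tissue at E8.0, tissue and stage changed together and cannot be told apart. In KO, 7 of the 43 genes rose and 0 fell, where 25.8% of all genes passed (13.8% higher and 12% lower). In WT 4 rose and 0 fell, where 14.1% passed (6.54% higher and 7.55% lower). Rb1, the retinoblastoma protein gene, rose in both genotypes. It measured 8.45, 8.46 and 8.73 at E8.0 in KO, against 7.20, 6.18 and 6.65 at E7.5. In WT it measured 8.63 and 8.31 at E8.0, against 6.41 and 6.57 at E7.5. The stages did not overlap in either genotype, with folds of 3.65 in KO (adjusted p 3.2e-06) and 3.94 in WT (adjusted p 3.5e-05). Cdc25b rose by 1.20 on the log2 scale in KO and 1.81 in WT, and Plk4 by 0.97 in KO and 0.69 in WT. Rfc4 (0.97), Rbl1 (0.93), Cdc6 (0.73) and Rrm2 (0.49) passed in KO, and Bub1b (0.70) in WT. Whether these changes differed between genotypes was not tested. Cdc6 was lost without E7.5 KO replicate 2 or 3 or E8.0 KO replicate 1 (adjusted p up to 0.107) and with the mean of its probes (0.28, adjusted p 0.274). In WT, Plk4 was lost without any 1 of the 4 arrays (adjusted p up to 0.135) and Bub1b without E7.5 WT replicate 1 or 2 or E8.0 WT replicate 2 (adjusted p up to 0.372).

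Between E8.0 and E8.5 few genes of the set or of the whole array passed. The 1 gene in KO, Ccnd2, is 2.33% of the set, where 3.21% of all genes passed, and with plate as a covariate 4 genes of the set passed there. In KO, beside Ccnd2, the lowest p belonged to Ccna2 (0.53, adjusted p 0.0624), which was below background at both stages, and Ccne2 (0.80, adjusted p 0.0994), the gene of a cyclin E. In WT 0 of the 43 genes passed, where 0.039% of all genes passed, all of them higher (limma), and 1 had an unadjusted p under 0.05. The 3 lowest p in WT belonged to Cdc6 (0.51, adjusted p 0.709), Plk4 (0.36, adjusted p 0.778) and Rfc4 (0.40, adjusted p 0.846).

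The largest number of changes came between E8.5 and E9.5, with plate 4 carrying all E9.5 arrays. In KO, 9 of the 43 genes rose and 4 fell, which is 30.2% of the set, where 34.2% of all genes passed (15.6% higher and 18.6% lower). In WT, 15 rose and 11 fell, which is 60.5% of the set, where 41.9% of all genes passed (18.9% higher and 22.9% lower). In WT the rises held 4 G1 regulators, 6 replication genes and 5 mitosis genes, and the falls 3, 4 and 4. Cdkn1b, Gmnn, Ccna2 and, in WT, Prim1 were above background on 0 E8.5 arrays of the genotype, entered the test through their E9.5 signal, and are counted above among the rises. Without such genes, 6 of 40 rose and 4 fell in KO (25%), where 35% of all genes so chosen passed (14.4% higher and 20.7% lower). In WT 11 of 39 rose and 11 fell (56.4%), where 44.4% passed (18.8% higher and 25.7% lower).

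In KO the rises from E8.5 to E9.5 were Mcm3 (0.77), Top2a (0.77), Tyms (0.61), Mcm6 (0.45), Cdk2 (0.44) and Pcna, on the log2 scale. With the mean of their probes Tyms (0.12, adjusted p 0.597) and Mcm6 (0.27, adjusted p 0.443) were lost. Against detection limits Ccna2 was higher at E9.5 by at least 1.18-fold (adjusted p 0.0026) and Cdkn1b by at least 1.04-fold (adjusted p 0.0138). Gmnn passed (adjusted p 0.00885) but has no bound above 1, so no fold is given. Ccna2, Cdkn1b and Gmnn entered the test through their E9.5 signal, so their p-values give no independent support for a rise. The falls were Cdc25c (-1.10), Cdkn2c (-0.78), Kif11, a mitotic kinesin gene (-0.42), and E2f3 (-0.37). Calls of Pcna and Mcm6 were lost without E8.5 KO replicate 1 or 3 or E9.5 KO replicate 1 or 4, Pcna also without E9.5 KO replicate 2 and Mcm6 without E9.5 KO replicate 3 (adjusted p up to 0.145 and 0.165). Kif11 was lost without E8.5 KO replicate 1 or 3 or E9.5 KO replicate 2 or 4, E2f3 without E8.5 KO replicate 2 or E9.5 KO replicate 4, Cdkn1b without E8.5 KO replicate 1 and Mcm3 without E8.5 KO replicate 2 (adjusted p up to 0.0993).

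Pcna, Rfc4 and Plk4 changed less in KO than in WT by their values. In KO the log2 changes were 0.78 for Pcna, which passed (adjusted p 0.0371), 0.26 for Rfc4 (adjusted p 0.301) and 0.27 for Plk4 (adjusted p 0.183). In WT, Pcna rose most. It measured 8.91, 9.53, 9.65 and 10.06 at E9.5, against 7.47, 7.56 and 7.67 at E8.5, and the stages did not overlap. The fold was 3.92 (log2 1.97, adjusted p 1.61e-05). Rfc4 rose 2.52-fold (adjusted p 1.32e-05) and Plk4 2.32-fold (adjusted p 4.32e-06) in WT. Among other replication genes in WT, Tyms, which makes thymidylate, rose by 1.05, Prim1, the primase catalytic subunit, by at least 1.38-fold and Gmnn, the licensing inhibitor geminin, by at least 1.1-fold. Of the G1 regulators, Cdkn2d rose by 0.97 and Ccne2 by 0.95, and of the mitosis genes Cdk1 rose by 0.90 and Ccna2 by at least 1.23-fold. Cdkn1b passed in WT too (adjusted p 0.00272), with no bound above 1. Prim1, Gmnn, Ccna2 and Cdkn1b entered the test through their E9.5 signal, so their calls give no independent support for a rise in WT. With the mean of its probes Cdk1 was lost (0.27, adjusted p 0.167).

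Ccnd1 changed by -0.19 in KO from E8.5 to E9.5 (95% interval -0.59 to 0.20). In WT the falls included this gene and some origin licensing genes. WT Ccnd1 measured 12.97, 12.62, 12.56 and 12.16 at E9.5, against 13.29, 13.41 and 13.36 at E8.5. The stages did not overlap, and the log2 change was -0.78 (adjusted p 0.00273). The licensing factor Cdt1 fell by 0.70, Mcm5 by 0.62 and Mcm4 by 0.59. Cdc6, Mcm6 and Mcm7 had higher WT means at E9.5 than at E8.5 and Mcm2 and Mcm3 lower ones, and none of these passed. The mitotic activators Cdc20 and Cdc25c each fell by 0.71, the ribonucleotide reductase gene Rrm2 by 0.60, E2f3 by 0.56, the inhibitor Cdkn2c by 0.55 and the centromere histone Cenpa by 0.38. The Mcm4 fall is that of its brightest probe. The 2 other kept probes changed by 0.03 and 0.04 in WT, and with the mean of the probes the call was lost (-0.17, adjusted p 0.617). Of the WT changes named here, Cdkn2c was the 1 lost when single arrays were left out (without E8.5 WT replicate 1 or 3 or E9.5 WT replicate 2, 3 or 4, adjusted p up to 0.189).

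Across the 43 genes the KO and WT changes had a Pearson correlation of 0.44 and a Spearman correlation of 0.57, against 0.65 and 0.60 across all genes. These describe genes, which share arrays and plate 4, and not replicates.

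**Figure D3:**
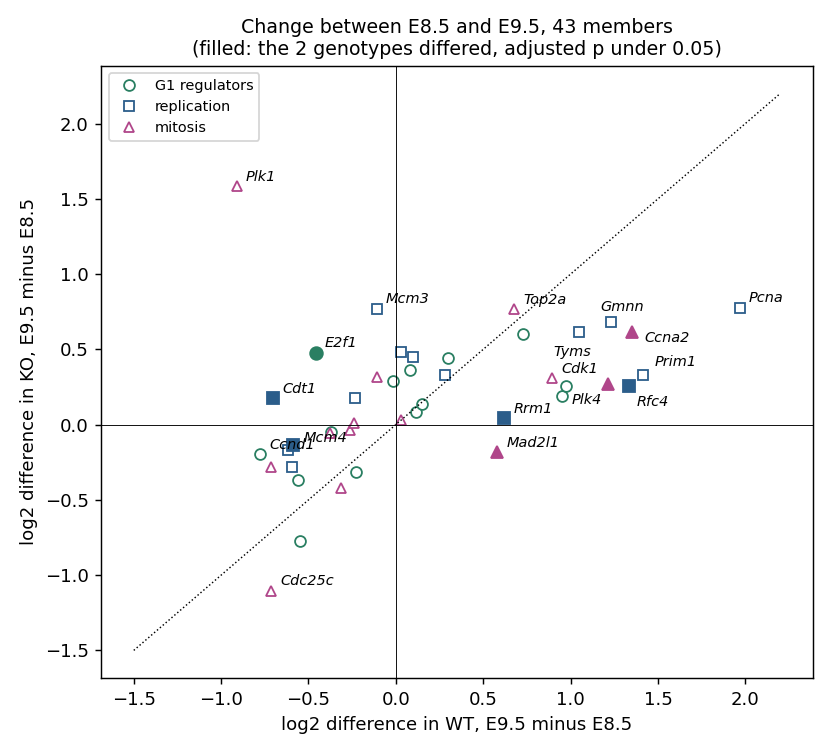
Log2 change of the 43 genes from E8.5 to E9.5, with KO tissue on the vertical and WT tissue on the horizontal axis and a dotted line at equal change. Filled points mark the 8 genes whose KO effect differed between the stages; Rfc4 and Plk4 lie below the line, with KO changes of 0.26 and 0.27 and WT changes of 1.33 and 1.21.

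The difference between those changes was tested directly. For 8 of the 43 genes (18.6%) the KO effect at E9.5 differed from that at E8.5, where 10.1% of all genes passed (4.33% positive and 5.79% negative). Without Ccna2, Cdkn1b, Gmnn and Prim1, each below background throughout at least 1 of the groups compared, 7 of 39 passed (17.9%), where 11.4% of all genes so chosen passed (4.83% positive and 6.62% negative). Positive values, with KO rising relative to WT by E9.5, were found for E2f1 (0.94), the licensing factor Cdt1 (0.88, SE 0.23, adjusted p 0.0251) and Mcm4 (0.45, SE 0.13, adjusted p 0.0391). Negative values were found for Rfc4 (-1.08, SE 0.26, adjusted p 0.0169), Plk4 (-0.95, SE 0.21, adjusted p 0.0125), the spindle checkpoint gene Mad2l1 (-0.76, SE 0.22, adjusted p 0.0371) and the ribonucleotide reductase gene Rrm1 (-0.58, SE 0.18, adjusted p 0.0498). Ccna2 passed below 0 (adjusted p 0.0292), but its E8.5 effect lies below background in both genotypes, so its size is not measured. Plate does not differ within E9.5, but the E8.5 KO arrays were split over plates 2 and 3 while the E8.5 WT arrays were all on plate 2. With plate as a covariate 2 genes passed, E2f1 and Plk1, and Plk1 rests on 1 isolated low value in E8.5 KO replicate 1 (5.16, against 10.75 to 12.69 on the other 24 arrays).

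Cdt1 measured 11.79, 11.37 and 11.72 in KO tissue at E8.5, against 12.42, 11.96 and 11.84 in WT tissue. At E9.5 it measured 11.81, 11.75, 12.01 and 11.63 in KO tissue, against 11.51, 11.43, 11.48 and 11.06 in WT tissue. KO lay below WT at E8.5 and above WT at E9.5, in both cases without overlap. Rrm1 measured 12.00, 12.24 and 12.10 in KO tissue at E8.5, against 11.60, 11.88 and 11.85 in WT tissue. The E9.5 values were 12.10, 12.24, 12.10 and 12.18 in KO tissue, against 12.36, 12.31, 12.44 and 12.48 in WT tissue. For Rrm1 the order was the reverse, KO above WT at E8.5 and below at E9.5. Mad2l1 measured 12.69, 12.68 and 12.66 in KO tissue at E8.5, against 12.23, 12.43 and 12.12 in WT tissue. At E9.5 it measured 12.59, 12.83, 12.11 and 12.46 in KO tissue, against 12.58, 12.79, 12.94 and 13.05 in WT tissue, with overlap.

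Leaving out single arrays separated these 8 calls. Plk4 passed in 14 of 14 fits that each left out 1 array of the 2 stages, Rfc4 in 13 (lost without E8.5 WT replicate 1, adjusted p 0.0595), Cdt1 in 10, E2f1 in 9, Ccna2 in 8, Mad2l1 and Mcm4 in 4 each and Rrm1 in 1. The highest adjusted p among these fits was 0.0843 for Cdt1, 0.0776 for E2f1 and 0.0854 for Ccna2, and 0.0853 for Mad2l1, 0.0874 for Mcm4 and 0.137 for Rrm1. Every fit kept the sign of all 8 values. Pcna (-1.19, adjusted p 0.0591), Mcm3 (0.88, adjusted p 0.065), Cdk1 (-0.59, adjusted p 0.0547) and Cdkn2d (-0.71, adjusted p 0.0536) lay just outside the threshold.

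**Figure D4:**
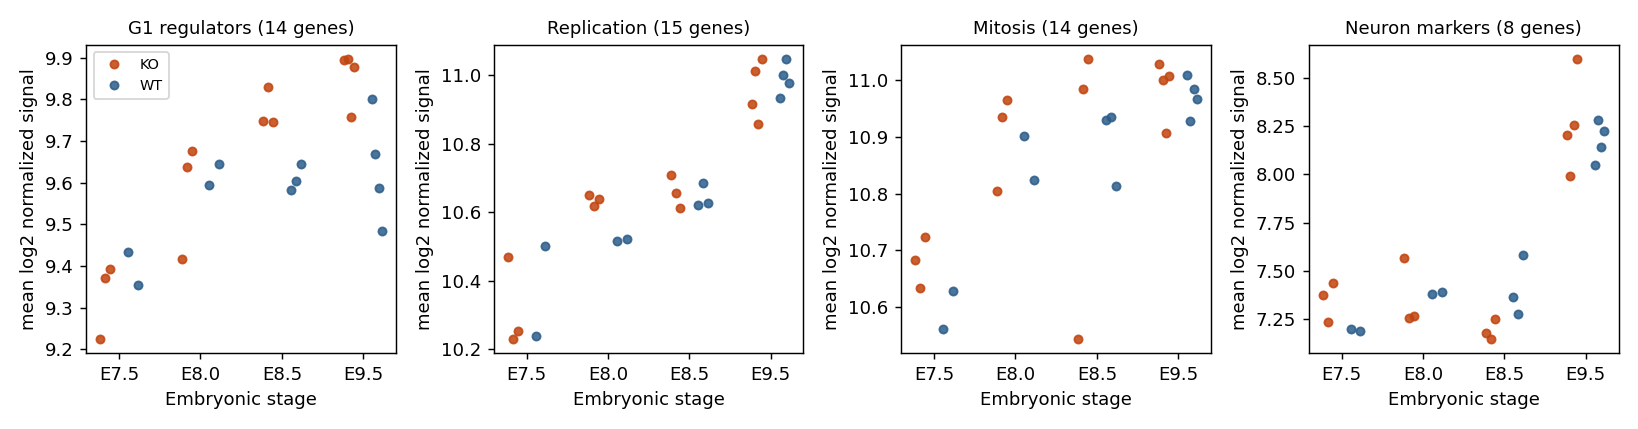
Mean normalized log2 signal per array of the 14 G1 regulators, 15 replication genes, 14 mitosis genes and 8 neuron markers, by stage, with KO left of WT. Replication means lie at 10.86 to 11.05 in KO and 10.94 to 11.05 in WT at E9.5, above all earlier arrays. This mean holds Prim1 and Gmnn, which entered the test through their E9.5 signal, and all E9.5 arrays were on plate 4. The mean of 32 further replication genes outside the set, not drawn, lay at 10.86 to 10.99 at E9.5, against 11 to 11.09 at E8.5. The single low mitosis mean at E8.5 (10.54) is KO replicate 1, where Plk1 measured 5.16.

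As classes the 3 roles differed little between genotypes. At E8.5 the G1 mean per array was 9.75 to 9.83 in KO, against 9.58 to 9.64 in WT, without overlap. The replication mean was 10.61 to 10.71 in KO, against 10.62 to 10.69 in WT, and the mitosis mean 10.54 to 11.04 in KO, against 10.81 to 10.94 in WT. The median KO minus WT difference at E8.5 was 0.18 for G1 regulators, -0.10 for replication genes and 0.05 for mitosis genes. At E9.5 it was 0.16, -0.12 and -0.01, and at E8.0 0.03, 0.06 and -0.00. At E9.5 the G1 mean was 9.76 to 9.9 in KO, against 9.48 to 9.8 in WT, with overlap. Mean signals compare arrays and not classes, since each probe has its own brightness.

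A further 103 genes of the same pathways, listed by role, gave 76 tested genes. Between genotypes 0 of 76 passed at E7.5, where 0.224% of all genes passed. At E8.0, 1 rose (1.32%, where 1.73% of all genes passed), Tfdp2 (0.85), the dimerisation partner of E2F factors. At E8.5, 4 rose and 1 fell (6.58% of the list, where 5.59% of all genes passed), with the kinase inhibitor gene Cdkn1a (1.44, SE 0.24, adjusted p 0.00255), the abscission gene Cep55 (0.93) and the replication protein A gene Rpa3 (0.82) the largest. At E9.5, 0 of 76 passed, where 2.27% of all genes passed, and 14 had an unadjusted p under 0.05 (limma). From E8.5 to E9.5, 12 rose and 17 fell in KO (38.2%), where 34.2% of all genes passed. In WT 17 rose and 15 fell (42.1%), where 41.9% of all genes passed. The KO effect differed between E8.5 and E9.5 for 11 of the 76 genes (14.5%), where 10.1% of all genes passed. Of these, 4 were higher and 7 lower, with Rpa3 (-1.18), the kinetochore gene Spc25 (-1.15) and Cep55 (-1.06) the largest.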

How the data were processed

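Total RNA was amplified to biotin-labelled cRNA and read on bead arrays, per the labels' protocols. The deposited raw table holds, per the file headers, an average signal (an intensity on a linear scale, not normalized) and a detection p-value for 25697 probes on each array. Of how the authors made these, nothing more is given. The deposited series matrix holds the authors' processed intensity values, and was used as an alternative; its E9.5 columns have another distribution than its earlier ones (medians 153 and 124), so it was tested within these tables only. Its 3 E8.0 WT columns rank the probes like other raw columns of that group than their own, and its remaining columns match their own raw columns.

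Raw intensities went through neqc of limma 3.58.1 in R 4.3.3, which corrects the background, normalizes by quantiles and takes log2, here with offset 16. Probes with a detection p under 0.05 on at least 3 arrays were kept (15030), and the brightest kept probe stood for each of 10261 genes. Gene names came from the platform annotation. Of the 55 genes, 84 probes were listed, 71 kept, and 14 genes had more than 1. All 25 arrays entered 1 linear model with 9 groups (lmFit and eBayes, 16 residual degrees of freedom, 19.3 with the prior), and every adjusted p comes from limma, two-sided, with Benjamini-Hochberg adjustment within each contrast. The fit was tested on simulated data. Replicates within a group correlated at 0.9559 to 0.9947, and the number of arrays limits the precision. A gene below background on every array of 1 group has its fold given as a bound, against the higher of its own value and the lowest detected signal of each array.

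The genes and lists were chosen with earlier results of these data known. Genes named are those that passed, at most 10 in each direction of a comparison; where fewer than 3 passed, the 3 lowest p; in each KO comparison also Ccnd1, Ccnd2, Cdk4, Cdkn1b, Rbl2, E2f1, Mcm2, Pcna, Ccnb1, Cdk1, Top2a and Mki67; and of other pathway genes the 3 largest changes that passed. Others named were chosen after their values were seen. Replicate numbers did not pair the samples (correlations of same-numbered deviations from -0.135 to 0.331, not above 0.1 throughout in any comparison). Alternatives were the series matrix, no background correction, other detection filters, the mean of a gene's probes, plate as covariate, random block or single plate, the replicate block, the compared arrays alone, other treatments of the 3 E8.0 WT arrays, and each array left out. Sequences are RefSeq's (GRCm38.p6).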

Additional observations from a re-analysis of the deposited data

Results flagged for a closer look

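For 8 genes the KO effect differed between E8.5 and E9.5 by a test of the difference itself (limma). The KO effect at E9.5 minus that at E8.5 was 0.94 for E2f1, 0.88 for Cdt1 and 0.45 for Mcm4, and -1.08 for Rfc4, -0.95 for Plk4, -0.76 for Mad2l1, -0.73 for Ccna2 and -0.58 for Rrm1. Ccna2 was above background on 0 of the 6 E8.5 arrays, so its value is not a measured size. On the 8 neural progenitor markers tested, 2 had a KO effect that was higher at E9.5 than at E8.5 and 0 a lower one. Over all genes 4.33% passed as higher and 5.79% as lower. The part of these markers in the values above was not tested.

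Of the 86 sets of 4 E9.5 arrays, 1 gene and 1 genotype each, 2 held a sample far from the other 3. Ccne1, the gene of cyclin E1, measured 9.15 in E9.5 KO replicate 3 and 9.87 to 10 in the other KO samples. Rrm2 measured 10.95 in E9.5 KO replicate 3 and 11.32 to 11.35 in the other KO samples. Chance flags about 1 in 20 such sets.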

How the results depend on the processing

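No value of a named gene turned its sign under any alternative run while called. At E8.0 the count of genes that passed was 3, and 0 with the series matrix, the plate covariate, the replicate block, the compared arrays alone, the whole-embryo array added, the array identities of the matrix or plate 1 alone, 1 without background correction, and 0 to 6 when single arrays were left out; the 6 passed without KO replicate 3 and included Cdc20, Cdc25a and E2f1, lower in KO. At E8.5 the count of 3 was 0 on the compared arrays alone, 1 with plate as covariate, as random block or on plate 2 alone, and 0 to 4 with single arrays left out. That 1 gene was Plk1 with the covariate or on plate 2, where 0 of the 3 passed, and Ccna2 with the random block. Mcm4 passed as lower in KO at E8.5 with the series matrix, without background correction and with the mean of probes. It also passed as lower in the mean of the stages with the mean of probes. At E9.5 the count of 3 ran from 2 to 4 under other settings and from 0 to 4 with single arrays left out. The count of 4 in the mean of the stages fell to 2 with the array identities of the matrix (3 to 7 with single arrays left out). The count of 8 differences between the E8.5 and E9.5 effects was 13 without background correction (7 of the 8 among them), 5 with the mean of probes, 2 with plate as covariate (E2f1 of the 8, and Plk1), 3 with the replicate block, and 1 to 12 with single arrays left out. In the mean of the stages, 1 of the 4 calls, Cdc25b, remained with plate as covariate. Counting only genes above background in each group compared, an alternative chosen after seeing the data, moved no count by more than 1.5 times.

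Between stages, the KO count from E7.5 to E8.0 was 7 (6 to 11 with single arrays left out) and the WT count 4, or 2 on the compared arrays alone (2 to 3). The KO count from E8.0 to E8.5 was 1, or 4 with plate as covariate and 0 on the compared arrays alone (0 to 2). The KO count from E8.5 to E9.5 was 13, or 6 with plate as random block (9 to 12), and the WT count 26 (23 to 26). At E7.5, and in WT from E8.0 to E8.5, 0 genes of the set passed under each alternative run. The cause of these shifts was not tested.

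The replicate block changed no other count by more than 1.5 times: it gave 4 at E8.5, 2 at E9.5 and 3 in the mean, though the numbers do not pair samples. Over all genes, E8.0 calls numbered 178, against 15 with the series matrix, 53 with plate as covariate and 0 with the block or on the compared arrays alone. E8.5 calls numbered 574, against 99 with plate as covariate, 71 on plate 2 and 0 on the compared arrays alone. E9.5 calls numbered 233, against 666 with the series matrix. The share of calls that were higher in KO was 69.1% at E8.0 and 68.7% at E9.5, against 46.7% and 55.1% with the series matrix. The series matrix was not run for contrasts across its separately normalized tables, and plate as covariate could not be fitted for E9.5 against E8.5.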

Other observations

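Plk1, the mitotic polo kinase gene, had a single aberrant array. In E8.5 KO replicate 1 it measured 5.16, against 10.75 to 12.69 on the other 24 arrays, with a raw signal of 106.2 (at least 1018 elsewhere) and a detection p of 0.201. The series matrix shows the same gap, at 119.8 against at least 1282. Of the kept probes, 1 other fell short of its next lowest array by as much as 4 log2 units, that of Mak16 in E9.5 WT replicate 2. Plk1 differed by -2.57 at E8.5 (adjusted p 0.167) and was the 1 gene of the set called lower there on plate 2 alone or with plate as covariate, fits in which that array carries the KO value. Apart from it, Plk1 measured 12.07 and 12.19 in KO tissue at E8.5, against 12.59, 12.65 and 11.87 in WT tissue, so that the groups overlapped.

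The 3 kept probes of Mcm4 did not give 1 value. The brightest, used throughout, had a mean KO minus WT difference of -0.11 over the stages (adjusted p 0.244 over all kept probes). The 2 dimmer probes had -1.02 (adjusted p 0.00868) and -1.17 (adjusted p 0.00918). At E8.5 they differed by -1.29 and -1.37 and at E9.5 by 0.08 and -0.03. All 3 probes were lower in KO at E8.5 by their values, and they disagree on the size of the difference.

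E9.5 WT replicates 1 and 4 lay at opposite ends of the 4 WT samples for several genes of the set. Replicate 1 had the highest WT value of Ccnd1 (12.97), Ccnd2 (12.59) and E2f1 (10.21). It had the lowest WT value of Pcna (8.91), Rfc4 (11.21) and Mcm7 (10.54). Replicate 4 had the lowest WT value of Ccnd1 (12.16), Ccnd2 (11.34) and E2f1 (9.75) and the highest of Pcna (10.06) and Rfc4 (11.735). In a group of 4 some sample is at an end for every gene, and the share over the set was not computed. With replicate 1 left out, 4 genes of the set passed at E9.5, and 12 in the difference between the E8.5 and E9.5 effects.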
